A study of Mus musculus with 4 samples.

Results

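Endothelial cells (ECs) line blood vessels, and in the brain they form the blood-brain barrier. They change their transcripts along the vessel from artery over capillary to vein, and again where a vessel sprouts. A sprouting EC makes *Apln*, *Esm1* and *Angpt2*, whose products are the ligand apelin, the proteoglycan endocan and the TEK ligand angiopoietin-2. The genes described here are 8 transcripts that stood higher in the ECs of *Angpt2*-KO mice, namely *Meox1*, *Gda*, *Bst1*, *Htra1*, *Epdr1*, *Cd300lg*, *St3gal5* and *Gpx3*, out of 32286 counted genes. They were chosen by name from their KO against WT difference in ECs, so that difference is given below as a description and was not tested. The question was where in the endothelium these transcripts were higher, whether they followed the angiogenic cells, and whether mural cells and microglia carried them too.

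Single-cell RNA was measured in microvascular fragments from the cerebra of 4 mice aged 3 months, with 1 library per mouse. The fragments were caught with beads against PECAM1 and dissociated. The *Angpt2*-WT mice (*Angpt2*+/+, WT1 female and WT2 male) were littermates of a line that also gave the *Angpt2*-KO mice (*Angpt2*-/-, KO1 female and KO2 male), all on a C57BL6/J background. The KO allele lacks exon 4 in every cell, since it was made with *Pgk*-Cre in the germ line, so an effect cannot be assigned to the endothelium alone. Counting at the 3′ end still reads a transcript that lacks exon 4, so the *Angpt2* counts cannot serve as a check of genotype.

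The libraries held 17999 cells with over 500 genes and under 10% mitochondrial UMIs, from 31753395 (KO2) to 42903731 UMIs (WT2) per library. Median depth differed between them, from 4088.5 UMIs per cell in KO2 to 7351.5 in KO1, and 33 cell barcodes occurred in more than 1 library. Of these cells, 14160 were brain ECs, 811 fenestrated endothelial-like, 596 pericyte-like, 705 smooth muscle-like and 906 microglia-like. *Cldn5* was found in 98.7 to 99.2% of the ECs of each mouse, *Pdgfrb* in 94.2 to 98.8% of the pericyte-like cells, *Myh11* in 88.5 to 99.5% of the smooth muscle-like cells and *Cx3cr1* in 90.7 to 95.7% of the microglia-like cells. Levels are given as CPM, the UMIs of a gene summed over all cells of a group in 1 mouse and scaled to the same total for every sum. Replicates are the 2 mice of a genotype, and in summed RNA fewer cells making a transcript and less transcript per cell cannot be told apart. ECs with any *Apln*, *Esm1*, *Angpt2* or *Itga4* UMI are called angiogenic, and these made up 14.8% (WT1), 12.03% (WT2), 57.5% (KO1) and 35.1% (KO2) of ECs. In every mouse they were deeper than the other ECs (median 9084 against 5534 UMIs in KO1, for example). A single such UMI was all that 322 of the 476 WT1 and 404 of the 566 WT2 cells held. In KO mice it was 361 of 1201 (KO1) and 701 of 1456 (KO2). An *Itga4* UMI was in 341 (WT1) and 373 (WT2) cells and an *Esm1* UMI in 9 and 23. By the same rule 7.69 to 13.6% of microglia-like, 33.0 to 53.3% of B cell-like and 37.9 to 61.5% of smooth muscle-like cells would count. So would 54.1 to 82.6% of pericyte-like and 69.5 to 85.3% of fenestrated endothelial-like cells, with high shares in WT mice as well. The name therefore stands for the UMIs and not for a shown state. The 9 stress genes (*Fos*, *Fosb*, *Junb*, *Jund*, *Egr1*, *Hspa1a*, *Hspa1b*, *Atf3* and *Dusp1*) also differed. Their summed level was lower in KO ECs (3932 and 4232 CPM) than in WT ECs (6474.5 and 5957 CPM), and the part of depth or stress in the differences below was not tested.

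The proximal upstream sequence is shown for the pair of genes in which any of 7 searched motifs matched, *Gda* and *Gpx3*. RefSeq (GRCm38.p6) held windows of 250 bases before the start of 5 of the 8 genes, *Gda*, *Htra1*, *Epdr1*, *St3gal5* and *Gpx3*. *Meox1*, *Bst1* and *Cd300lg* had no entry. Annotated exon bases were removed from the stretches below, which read 5′ to 3′ on the strand of the gene, and capitals mark the motif matches. The *Gda* stretch is chr19:21472673-21472911 on the minus strand and the *Gpx3* stretch chr11:54902604-54902771 on the plus strand, both inside the GENCODE span of their gene and before the RefSeq start.
Gda: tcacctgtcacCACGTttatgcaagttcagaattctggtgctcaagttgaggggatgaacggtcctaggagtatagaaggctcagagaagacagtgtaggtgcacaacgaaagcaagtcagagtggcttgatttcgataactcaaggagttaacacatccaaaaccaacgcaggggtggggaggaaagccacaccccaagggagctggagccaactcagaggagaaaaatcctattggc
Gpx3: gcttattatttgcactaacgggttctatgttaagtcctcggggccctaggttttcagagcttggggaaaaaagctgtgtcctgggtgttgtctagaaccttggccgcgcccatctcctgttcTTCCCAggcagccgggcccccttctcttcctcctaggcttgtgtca
Motifs were searched on both strands, and no 2 matches overlapped. In *Gda* the match is the hypoxia response core ACGTG, which 16.6% of all 32851 windows hold, and in *Gpx3* it is the RBPJ letters TGGGAA, which 21.6% hold. *Gpx3* also held the SMAD letters CAGAC (42.2% of windows) in an annotated exon that is not printed. GTAAACA (forkhead, 3.2%), CCGGAA (ETS, 12%), GGAATG (TEAD, 12.6%) and CTTTGA (TCF/LEF, 13.8%) were in none of the 5 windows. The matches only describe the sequence.

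*Meox1* (ENSMUSG00000001493), on chromosome 11 (101877510 to 101894374, minus strand, GRCm38 with GENCODE M21 as for all genes here), encodes a homeobox transcription factor of the somite and of vascular cells. Its level in ECs was 12.8 (WT1) and 10.9 CPM (WT2) against 143 (KO1) and 81.9 CPM (KO2), a 9.51-fold higher mean in KO mice. In ECs without an angiogenic UMI it was 8.34 and 7.86 CPM in WT and 48.3 and 44.8 in KO mice, and in angiogenic ECs it was 30.0 and 23.5 in WT and 181 and 125 in KO mice. Both KO mice stood above both WT mice in each case, and the KO to WT ratio was nearly the same in both kinds of EC when pooled over zones (5.74 and 5.72). Within the zones named below the pair of ratios was 2.68 and 1.64 in capillary-like, 4.97 and 3.90 in venous-like and 2.20 and 2.30 in arterial-like ECs. In the KO-dominated cluster it was 5.17, from 5 WT UMIs, and 1.43. *Meox1* was therefore higher in both KO EC populations and highest in the angiogenic one. A *Meox1* UMI was found in 20.7% (KO1, exact 95% binomial interval 18.1 to 23.6%) and 14.3% (KO2, 13.04 to 15.7%) of non-angiogenic KO ECs, against 5.10% (WT1, 4.30 to 5.99%) and 4.38% (WT2, 3.77 to 5.04%). These intervals cover counting error only. The antisense gene *Gm11551* overlaps it, and reads of the pair were taken as the deposited counts assign them.

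The secreted products of the group are those of *Htra1*, *Epdr1* and *Gpx3*. *Htra1* (ENSMUSG00000006205, chromosome 7, 130936111 to 130985660, plus strand) encodes a secreted serine protease that acts on matrix and on TGF-β signalling and whose loss causes a hereditary disease of small brain vessels. It was the most abundant of the 8 in WT ECs, with 40.6 (WT1) and 43.3 CPM (WT2), against 117 (KO1) and 107 CPM (KO2), a 2.67-fold higher mean. Non-angiogenic ECs held 42.05 and 44.9 CPM in WT and 81.5 and 98.3 in KO mice, a ratio of 2.07. Unlike most of the 8, *Htra1* was common in WT ECs, with a UMI in 21.2% (WT1) and 20.2% (WT2) of them. The annotated span of *Fgfr2* on the other strand covers it.
*Epdr1* (ENSMUSG00000002808, chromosome 13, 19591706 to 19619927, minus strand) encodes a glycoprotein related to ependymin. It had 3.14 (WT1), 2.44 (WT2), 21.0 (KO1) and 14.4 CPM (KO2) in ECs, and 2.91, 2.29, 11.5 and 11.98 CPM in non-angiogenic ECs in the same order. The KO mice thus nearly coincided in the non-angiogenic cells, at a 4.52-fold higher mean than WT.
*Gpx3* (ENSMUSG00000018339, chromosome 11, 54902453 to 54910377, plus strand) encodes the extracellular glutathione peroxidase that removes peroxides in plasma. WT ECs gave 3 UMIs in WT1 and 1 in WT2, so no fold is given, whereas KO1 gave 324 (14.4 CPM) and KO2 161 UMIs (7.33 CPM). Of these, 99.7% (KO1) and 94.4% (KO2) came from angiogenic ECs, which supplied 71.5 and 46.4% of all EC UMIs. Non-angiogenic KO ECs gave 10 *Gpx3* UMIs in all, 1 in KO1 and 9 in KO2, at 0.156 and 0.764 CPM against 0.143 and 0 CPM in WT, with floors of 3 UMIs at 0.109 to 0.468 CPM. Both KO values lay above both WT values there as well, but by single UMIs, so the data go against calling *Gpx3* raised across the endothelium.

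*Bst1* and *Cd300lg* encode proteins of the cell surface. *Bst1* (ENSMUSG00000029082, chromosome 5, 43818885 to 43843986, plus strand), a GPI-anchored ectoenzyme that uses NAD, had 4.54 (WT1), 5.24 (WT2), 14.6 (KO1) and 19.5 CPM (KO2) in ECs. Non-angiogenic ECs had 4.34, 4.95, 15.9 and 16.3 CPM and angiogenic ECs 5.31, 6.44, 14.1 and 23.1 CPM, in the same order. The annotated span of *Fbxl5* on the other strand overlaps its start. *Cd300lg* (ENSMUSG00000017309, chromosome 11, 102041509 to 102055620, plus strand), a mucin-like receptor of peripheral capillary endothelium, had 2.69, 2.62, 14.2 and 16.7 CPM in ECs and 2.29, 2.62, 5.61 and 11.3 CPM in non-angiogenic ECs. KO1 was lower than KO2 there, with 36 and 133 UMIs behind the values.

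*Gda* and *St3gal5* encode intracellular enzymes. *Gda* (ENSMUSG00000058624, chromosome 19, 21391307 to 21473445, minus strand), guanine deaminase of purine breakdown, had 4.88 (WT1), 4.18 (WT2), 73.1 (KO1) and 46.4 CPM (KO2) in ECs, a 13.2-fold higher mean. The ratio was 18.4 among angiogenic ECs (5.49 and 3.68 CPM in WT, 93.6 and 75.0 CPM in KO mice) and 4.76 among the others (4.72, 4.30, 21.4 and 21.6 CPM). *St3gal5* (ENSMUSG00000056091, chromosome 6, 72097592 to 72154571, plus strand), the sialyltransferase that makes the ganglioside GM3, had 17.5, 14.1, 82.7 and 56.3 CPM in ECs and 16.3, 13.2, 34.8 and 39.6 CPM in non-angiogenic ECs. *Gm29438* and *4933431G14Rik* overlap it.

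**Figure D1:**
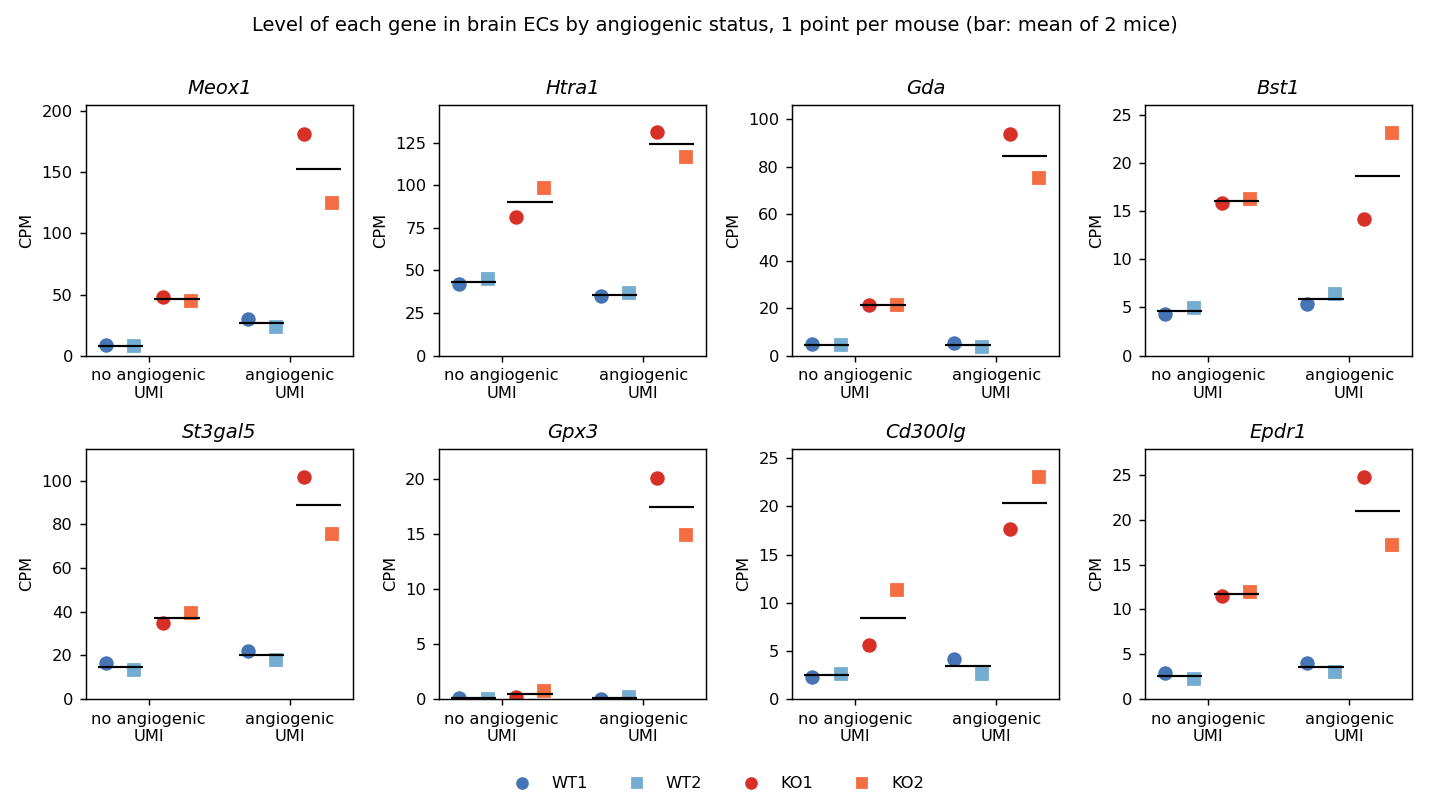
CPM of each of the 8 genes (vertical axes, linear from 0) in ECs without and with an *Apln*, *Esm1*, *Angpt2* or *Itga4* UMI, 1 point per mouse, with a bar at the mean of the 2 mice of a genotype. The KO points lie above the WT points in all panels, *Bst1* has KO points at 15.9 and 16.3 CPM in non-angiogenic and 14.1 and 23.1 CPM in angiogenic ECs, and *Gpx3* is near 0 in non-angiogenic ECs of every mouse.

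All 8 genes had both KO values above both WT values in ECs, in non-angiogenic ECs and in angiogenic ECs. Among all genes with at least 10 UMIs, 25.5% did so in ECs, 23.2% in non-angiogenic and 24.2% in angiogenic ECs, and 24.1% had both KO values below both WT values in ECs. Since the genes were chosen for this difference, nothing is read from the counts. The median log2 ratio of KO to WT means over the 8 genes was 2.61 in ECs, 1.79 in non-angiogenic and 2.52 in angiogenic ECs.

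The endothelial zones were rebuilt by clustering without the 8 genes and without the 4 angiogenic genes. They were arterial-like (1940 cells), capillary-like (3952 and 2940 cells in a pair of clusters), venous-like (2700 and 725 cells) and a further capillary-like cluster of 1903 cells, mostly from KO mice (862 cells of KO1 and 946 of KO2, against 51 and 44 of WT1 and WT2), led by *Apln*, *Esm1*, *Itga4* and *Ccn2*, which is given apart as the KO-dominated cluster. The arterial marker sum was 3016 to 4951 CPM in arterial-like and 109 to 189 CPM in venous-like cells. The venous-like zone joined 2700 cells led by *F5*, *Ndnf* and *Flrt2*, with venous markers at 1141 to 1365 CPM, and 725 cells led by *Adgrg6*, *Lrg1* and *Ackr1*, with 4032 to 4417 CPM.

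In WT mice the genes differed in the zone where they were highest, with the zones as clustered here. *Gda* was highest in arterial-like ECs (15.4 and 17.9 CPM, against 1.05 to 2.69 CPM in capillary- and venous-like ECs), and *Htra1* was ordered arterial-like (71.5 and 106 CPM), capillary-like (48.9 and 58.1) and venous-like (20.3 and 20.2), with no overlap between neighbours. *Bst1* was a venous transcript (8.24 and 8.07 CPM, against 0.561 to 1.59 CPM in the other zones), whereas *Meox1* was highest in capillary-like ECs among these 3 zones (26.0 and 20.03 CPM, against 3.91 to 9.90 CPM). *Cd300lg* had the order capillary-like (5.83 and 7.57), arterial-like (2.96 and 2.99) and venous-like (0.706 and 0.501 CPM). *St3gal5* and *Epdr1* were lowest in venous-like ECs, and *Gpx3* had 0 to 3 UMIs in each zone.

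Among those of the 8 genes with at least 10 UMIs in a zone, both KO values lay above both WT values for 7 of 7 in arterial-like ECs (22.8% of all genes), for 7 of 8 in capillary-like ECs outside the KO-dominated cluster (16.1%) and for 7 of 7 in venous-like ECs (25.5%). *Gpx3* had under 10 UMIs in arterial-like ECs (3, all in KO1) and in venous-like ECs (8), and was the exception in capillary-like ECs, with 0.297 and 1.16 CPM in KO against 0.299 and 0.122 CPM in WT mice. *Gpx3* apart, the smallest log2 ratios over these zones were those of *Htra1* in arterial-like (0.71) and capillary-like ECs (0.79), and the largest that of *Gda* in capillary-like ECs (3.56, with 27.0 and 20.6 CPM in KO against 1.35 and 2.69 CPM in WT mice). *Bst1* reached 33.3 and 46.2 CPM in venous-like KO ECs and stayed at 1.68 and 0.830 CPM in arterial-like ones, from 3 and 2 UMIs.

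Each zone was also read without its angiogenic cells. Of the genes with at least 10 UMIs, 7 of 7 then had both KO values above both WT values in capillary-like ECs (15.5% of all genes), 6 of 7 in venous-like ECs (23.4%) and 4 of 6 in arterial-like ECs (21.7%). The arterial 4 were *Meox1*, *Gda*, *Epdr1* and *St3gal5*, the last with 18.6 and 25.7 CPM in KO against 17.8 and 16.9 CPM in WT mice. *Htra1* overlapped there, with 74.2 and 106 CPM in WT and 91.8 and 151 CPM in KO mice. *Bst1* had 7 UMIs in WT and 0 in KO mice, where 83 and 295 cells set a floor of 3.72 and 1.64 CPM. With non-angiogenic cells of the KO-dominated cluster left out as well, KO values of *Meox1* in non-angiogenic ECs were 30.9 and 32.0 CPM against 8.19 and 7.85 CPM in WT.
In the cells led by *Adgrg6*, 5 of the 7 genes with at least 10 UMIs had both KO values above both WT values (25% of all genes), from 42 (KO1) and 155 KO cells (KO2). In the *F5*-led cells 7 of 7 did (25.6%), from 306 and 456 KO cells, and the difference between these clusters was not tested. *Bst1* was similar in both venous-like clusters of WT mice (7.11 and 7.54 CPM, and 11.6 and 8.89 CPM), while *Htra1* was higher in the *F5*-led cells (26.0 and 27.9 CPM, against 3.15 and 8.24 CPM).

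**Figure D2:**
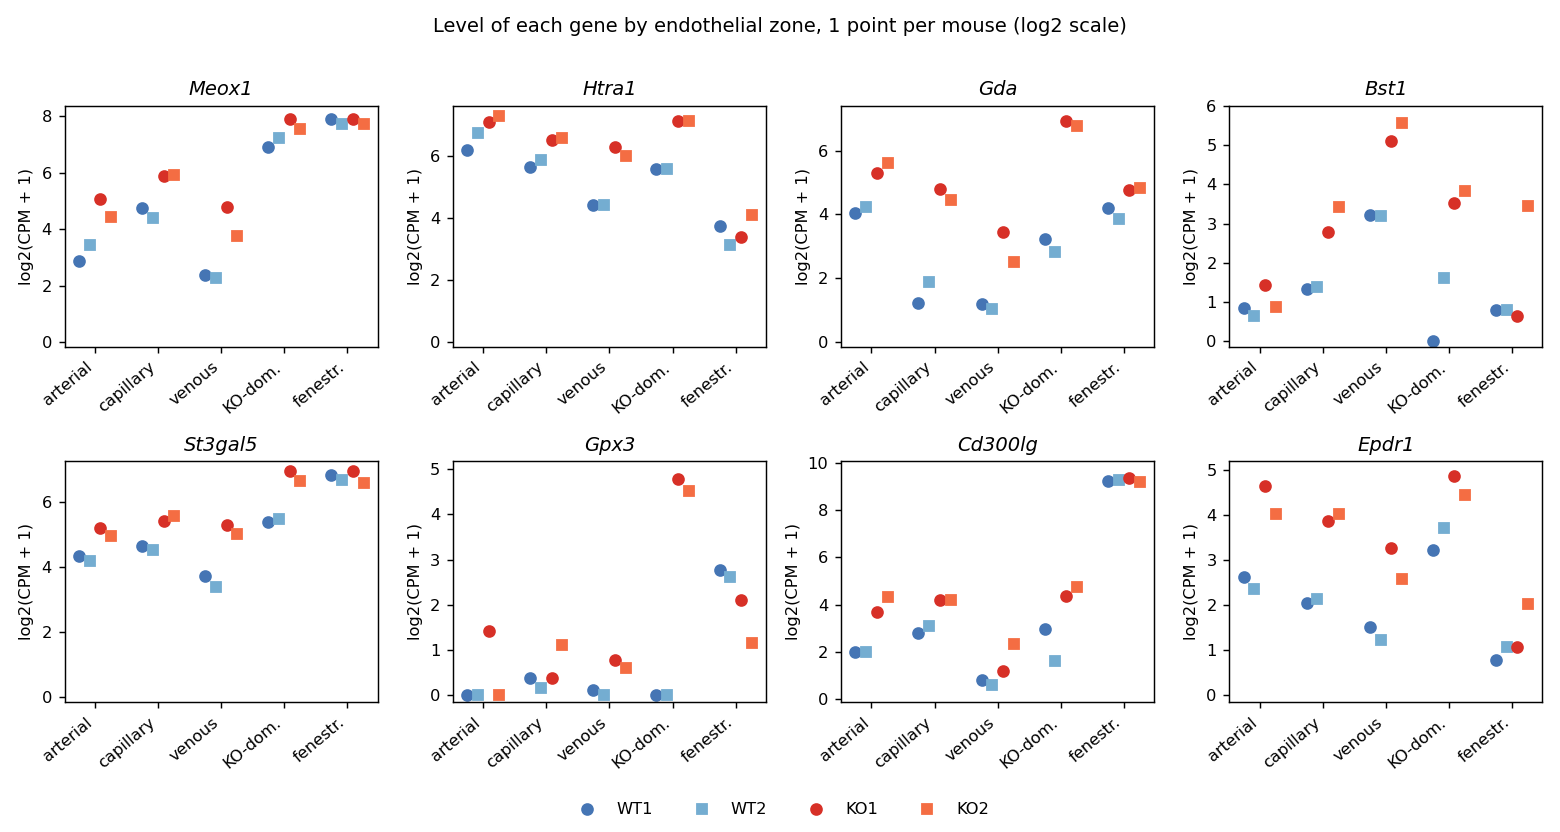
Level of each gene as log2(CPM + 1) (vertical axes) in arterial-like, capillary-like and venous-like ECs, the KO-dominated cluster (KO-dom.) and fenestrated endothelial-like cells (fenestr.), 1 point per mouse. KO points lie above WT points in most zones, the fenestrated columns overlap for *Meox1*, *St3gal5* and *Cd300lg*, and among brain ECs the *Gpx3* points of KO mice are highest in the KO-dominated cluster.

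The KO-dominated cluster held 87.0% (KO1) and 72.1% (KO2) of the *Gda* UMIs of ECs, 87.7 and 70.1% of those of *Meox1* and 97.5 and 93.2% of those of *Gpx3*, but 37.6 and 21.3% of those of *Bst1*, while it supplied 52.8 and 31.1% of all EC UMIs. Levels in it differed between genotypes as well: *Gda* had 8.45 and 6.13 CPM in the 95 WT cells of this cluster and 120 and 108 CPM in its KO cells, and *Htra1* had 47.3 and 47.0 against 140 and 139 CPM. *Meox1* was closer, with 118 and 151 CPM in WT and 238 and 184 CPM in KO cells. *Gpx3* had no UMI in these WT cells, which sets floors of 5.07 and 6.13 CPM, and 26.6 and 21.9 CPM in KO cells. All 8 genes had both KO values above both WT values in this cluster (26% of all genes).

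Fenestrated endothelial-like cells, which carry *Plvap* and lack the blood-brain barrier, showed another picture. *Cd300lg* was the highest there, with 612 (WT1), 632 (WT2), 665 (KO1) and 589 CPM (KO2), against 14.2 and 16.7 CPM in KO brain ECs. *Meox1* had 237, 210, 240 and 209 CPM and *St3gal5* 112, 100, 121 and 93.4 CPM in the same order, so that the genotypes overlapped and the log2 ratios of these 3 genes were 0.01 each. Only *Gda* had both KO values above both WT values (17.4 and 13.6 against 25.9 and 27.4 CPM), 1 gene of 8 where 20.9% of all genes did so. For *Gpx3* the order was the other way, with 5.80 and 5.15 CPM in WT and 3.31 and 1.25 CPM in KO mice (22 and 8 UMIs), where 12.4% of all genes had both KO values below both WT values.

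Angiogenic status was then compared inside each mouse, with the UMIs of angiogenic and of other ECs summed per mouse and edgeR's quasi-likelihood test with a term for the mouse. This contrast was not used to choose the genes, but it is not independent of the choice in KO mice, since the angiogenic cells supply much of their EC UMIs. Within KO mice 7 of the 8 genes were higher in angiogenic ECs, against 9.83% of all tested genes called higher and 5.79% called lower. Of these, *Gpx3* passed the filter on low counts only through the angiogenic sums, with 1 (KO1) and 9 UMIs (KO2) in the other ECs against 323 and 152 in angiogenic ECs, so its call is no support and no fold is given. The log2 fold change was 1.96 ± 0.10 (SE) for *Gda* (adjusted p = 8.54e-11), 1.69 ± 0.09 for *Meox1* (1.47e-10), 1.25 ± 0.17 for *Cd300lg* (2.83e-05) and 1.23 ± 0.10 for *St3gal5* (1.28e-07). It was 0.81 ± 0.15 for *Epdr1* (adjusted p = 0.000778) and 0.46 ± 0.08 for *Htra1* (0.00047). *Bst1* did not pass, at 0.22 ± 0.15 (adjusted p = 0.356), with −0.17 in KO1 and 0.50 in KO2 as ratios of CPM on the log2 scale.
Within WT mice 1 of the 8 genes was called, against 1.5% of all tested genes (1.14% higher and 0.368% lower), and 3 had an unadjusted p under 0.05, against 9.22% of all genes. This was *Meox1*, by 1.67 ± 0.14 (adjusted p = 1.96e-06), nearly the value in KO mice when all zones were pooled. The KO-dominated cluster held 20.6 (WT1) and 20.1% (WT2) of the *Meox1* UMIs of WT ECs, while it supplied 2.24 and 1.44% of all their UMIs. Its 41 and 33 angiogenic WT cells had *Meox1* at 133 and 177 CPM. *Gda* was at −0.03 ± 0.22 (adjusted p = 0.985), *Htra1* at −0.31 ± 0.11 (0.249) and *St3gal5* at 0.40 ± 0.15 (0.348). The difference between the genotypes in this contrast was not tested, because it contains the KO to WT ratio by which the genes were chosen.
The calls in KO mice changed without the KO-dominated cluster and in thinned cells, which also hold fewer UMIs. Without that cluster 3 of the 8 genes were called in KO mice, *Meox1* at 0.45 (adjusted p = 0.0425), *Cd300lg* at 0.95 (0.0179) and, newly, *Bst1* at 0.72 (0.00988). Over all genes 179 were called without the cluster, against 1995 with it. *Gpx3* was then too low to be tested, and *Gda* (0.50, 0.103), *St3gal5* (0.41, 0.0849), *Epdr1* (0.41, 0.429) and *Htra1* (0.17, 0.467) missed the threshold. With each cell thinned to 2000 UMIs, *Htra1* (0.17, adjusted p = 0.418) and *Epdr1* (0.63, 0.117) were no longer called. Without KO1, *Epdr1* was at 0.51 and *Bst1* at 0.50, from a single KO mouse. When either KO mouse was left out of the fit, more of the 8 genes and more of all genes were called in WT mice.

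**Figure D3:**
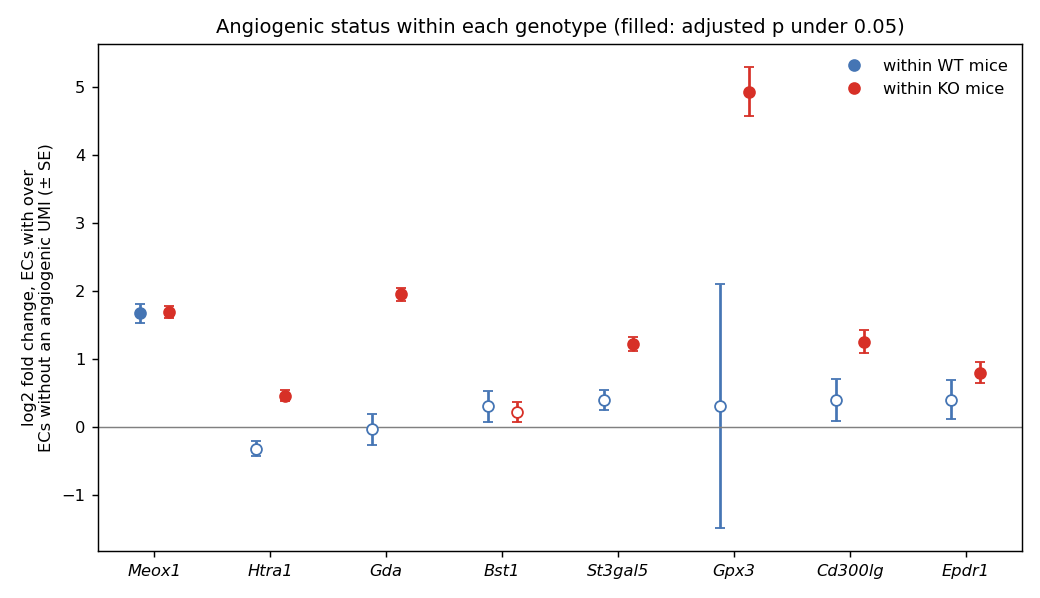
Log2 fold change of each gene between ECs with and without an angiogenic UMI (points, ± SE) within WT and within KO mice, from edgeR's quasi-likelihood fit, with filled points where the adjusted p was under 0.05. Filled points are *Meox1* in both genotypes and 6 further genes in KO mice, and the *Gpx3* points rest on 4 UMIs in all in WT mice and on 10 UMIs in the non-angiogenic ECs of KO mice.

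Grouping ECs by their number of UMIs of the 4 angiogenic genes (none, 1, 2, 3 to 5, or 6 and more) separated the genes further. *Gpx3* stayed between 0.156 and 2.77 CPM in KO mice up to 5 such UMIs and reached 40.9 (KO1) and 64.7 CPM (KO2) at 6 and more, which holds 447 of its 485 UMIs. *Gda* went from 21.4 and 21.6 CPM over 50.7 and 49.2 CPM at 2 UMIs to 149 and 170 CPM at 6 and more, and stayed between 3.08 and 9.71 CPM in every WT bin. *Meox1* was higher in each successive bin of KO mice, from 48.3 and 44.8 to 279 and 249 CPM. In WT mice it went from 8.34 and 7.86 CPM without such a UMI to 118 and 209 CPM in the last bin, which had 21 and 19 cells, with WT1 out of order between 2 UMIs (32.0 CPM) and 3 to 5 (29.1 CPM). *Bst1* had its lowest KO values in the last bin (11.4 and 10.7 CPM), and *Htra1* in KO mice was highest at 3 to 5 UMIs (148 and 132 CPM). The bins differ in depth, so these are descriptions.

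**Figure D4:**
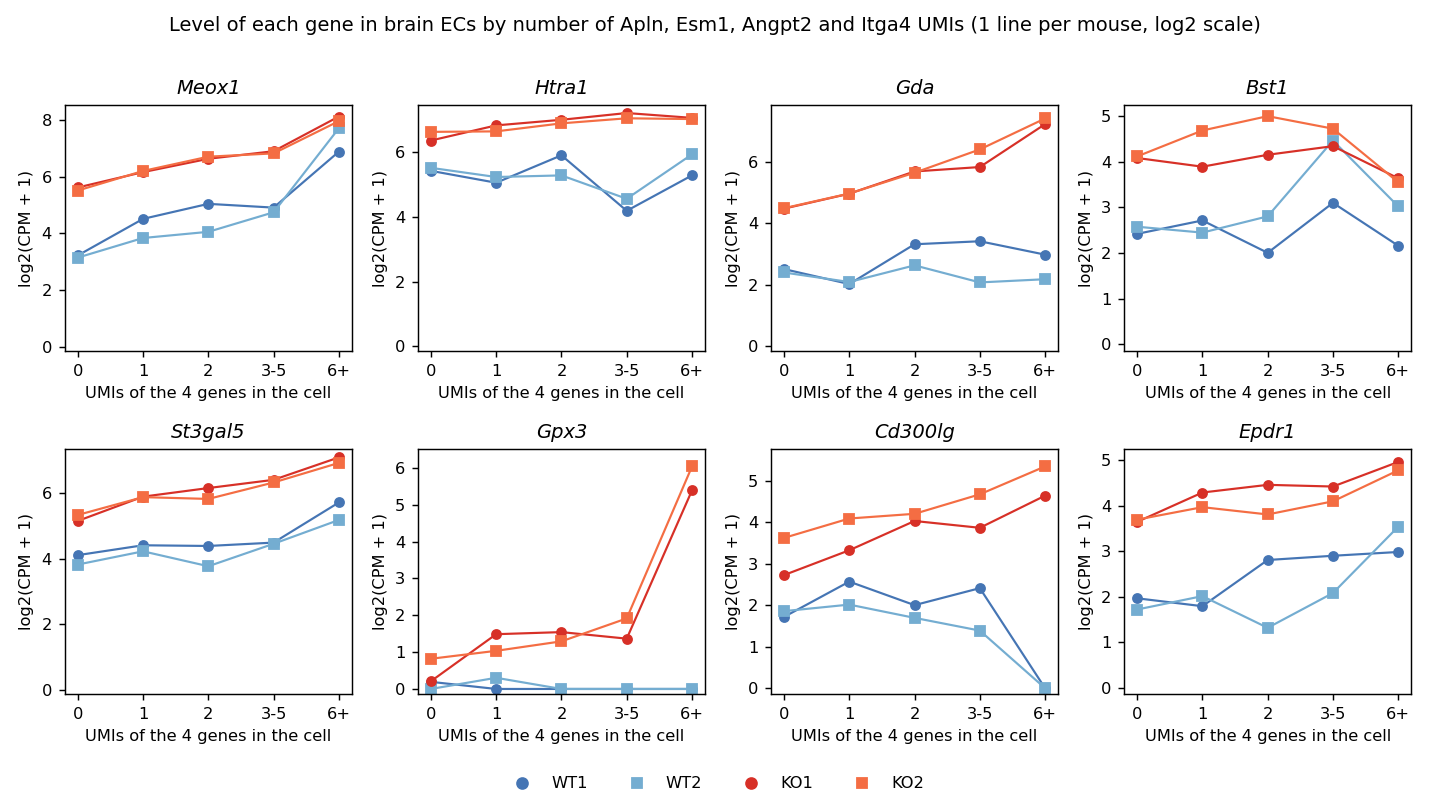
Level of each gene as log2(CPM + 1) (vertical axes) in ECs grouped by the summed UMIs of *Apln*, *Esm1*, *Angpt2* and *Itga4* per cell (horizontal axes), 1 line per mouse. In KO mice *Gpx3* is by far highest in the bin of 6 and more UMIs, and *Gda* and *Meox1* are highest in that bin while *Bst1* is lowest there.

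Single ECs seldom showed several of the 8 genes. After thinning to 2000 UMIs, a cell held on average 0.170 (WT1), 0.183 (WT2), 0.663 (KO1) and 0.560 (KO2) of them, and 3.29% (KO1) and 2.17% (KO2) of ECs held 3 or more, against 0.0657% and 0.0485% (2 cells each) in WT. *Gda* was found in 14.8% of *Meox1*-positive and 7.33% of *Meox1*-negative KO1 ECs, and in 11.6 and 5.39% in KO2. B cell-like cells, taken as a type that should lack these transcripts, had a *Meox1* UMI in 4.44% of cells in KO1 (exact interval 1.22 to 10.99%, median 3658 UMIs per cell) and 5% in KO2 (0.611 to 16.9%, median 2130), and in 0 of 53 and 0 of 91 cells in WT1 and WT2. The *Meox1* share of all KO ECs was 43.1% in KO1 and 23.8% in KO2 (median 7505 and 3886 UMIs). In non-angiogenic KO ECs it was 20.7 and 14.3% (median 5534 and 3423 UMIs). As CPM, *Meox1* had 18.9 (KO1) and 38.7 (KO2) in the B cell-like sums, from 12 UMIs. Non-angiogenic KO ECs had 48.3 and 44.8 CPM. The B cell-like sums held the 7 EC markers at 18.9 to 26.3% of the EC level, and the source of their UMIs was not tested. Erythrocyte-like cells had *Meox1* at 24.4 (WT1), 5.7 (WT2), 52.1 (KO1) and 56.7 CPM (KO2). *Htra1* had 17.1, 27.0, 79.4 and 73.5 CPM there, in the same order. *Gda*, *Epdr1* and *St3gal5* also had both KO values above both WT values in these cells. *Bst1* and *Cd300lg* overlapped and *Gpx3* had no UMI. The source of these UMIs was not tested either. *Cd300lg* and *Epdr1* had a UMI in 1 to 2 B cell-like cells per mouse, or 1.10 to 2.5% of them, and in 1.57 to 2.42% of WT ECs, so these low shares are not read as a difference between both cell types.

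Outside the endothelium, the genes were compared between genotypes in pericytes, smooth muscle cells and microglia. These cells did not enter the choice of the genes. Their sums held endothelial RNA, as given below, so the comparison is not independent of that choice. In pericyte-like cells 6 of the 8 genes were higher in KO mice by edgeR's quasi-likelihood test, against 5.58% of all tested genes called (3.56% higher and 2.02% lower), and 7 had an unadjusted p under 0.05, against 18% of all genes. *Meox1* had 10.5 (WT1), 6.196 (WT2), 159 (KO1) and 107 CPM (KO2), and its log2 fold change was 4.07 ± 0.34 (SE) with an adjusted p of 2.43e-06. *St3gal5* was called as well (2.88 ± 0.34, adjusted p = 7.11e-05). Of the called genes it alone reached the level of the filter on low counts in both WT mice. *Meox1* reached that level in WT1 but not in WT2, so it needed the KO sums to pass and its values are a description. *Gda* (3.51, 2.07, 99.98 and 66.0 CPM), *Cd300lg*, *Epdr1* (1 and 0 UMIs in WT mice, 82 and 30 in KO mice) and *Gpx3* (0 and 0, 35 and 23) were also called. They passed the filter only through the KO sums, so their calls are no support and no fold is given. *Cd300lg* was not called by DESeq2 (adjusted p = 0.147). *Gda* rests on 4 WT UMIs, *Cd300lg* on 7, *Meox1* on 12 and *St3gal5* on 18. *Htra1* did not pass (80.8, 80.6, 136 and 96.2 CPM, 0.52 ± 0.20, adjusted p = 0.159), and *Bst1* was too low to be tested. All 8 had both KO values above both WT values (26.2% of all genes). With WT2 left out, fewer of the 8 and fewer of all genes were called.
These pericyte-like sums held much endothelial RNA. The summed level of 7 EC markers (*Cldn5*, *Pecam1*, *Cdh5*, *Flt1*, *Tie1*, *Ly6c1* and *Slco1a4*) was 54.2 (WT1), 58.8 (WT2), 59.8 (KO1) and 56.4% (KO2) of that in ECs. *Apln*, a transcript of sprouting ECs, had 571 (KO1) and 291 CPM (KO2), above its level in the ECs of the same mice (411 and 117 CPM), against 1.76 and 1.03 CPM in WT. Pericyte-like cells without any UMI of *Cldn5*, *Pecam1*, *Cdh5* and *Flt1* numbered 23, 55, 30 and 40. Only 1 of the 8, *Htra1*, had at least 10 UMIs in them, and it did not have both KO values above both WT values (17.3% of all genes did). The others had 0 to 3 UMIs, with floors of 19.5 to 39.1 CPM in these sums, too few for a comparison. Among them were 1 KO UMI each of *Meox1* and *Gpx3* and 3 UMIs of *Cd300lg*, all in WT2. *St3gal5* had no UMI in these cells in any mouse. *Htra1* was there at 91.2 (WT1), 104 (WT2), 69.5 (KO1) and 24.4 CPM (KO2), from 23 UMIs in WT and 11 in KO mice.

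Smooth muscle-like cells gave no call among the 6 genes tested (edgeR, and 0 by DESeq2 as well). Of all genes 0.0195% were called and 0.00976% called higher. *Gda*, *St3gal5* and *Meox1*, 3 genes, had an unadjusted p under 0.05 by edgeR, against 5.6% of all genes. *St3gal5* (8.12 and 4.76 CPM in WT1 and WT2) and *Meox1* (7.70 and 2.11) reached the level of the filter on low counts in WT1 but not in WT2. They needed the KO sums to pass, so this count is no support. *Gda* was nearest, with 9.41 (WT1), 8.99 (WT2), 27.0 (KO1) and 29.5 CPM (KO2), or 1.53 ± 0.32 (SE) on the log2 scale (adjusted p = 0.126). It passed with the replicate block (adjusted p = 0.0187), without the filter on low counts (0.00364) and without KO1 (0.0196). *Htra1* had 76.1, 90.9, 145 and 95.9 CPM and kept 80.0, 65.2, 83.1 and 64.6 CPM in the cells without EC UMIs, where *Gda* had 1 UMI in all. All 6 genes with at least 10 UMIs had both KO values above both WT values (24.3% of all genes), in sums whose EC markers stood at 35.5 to 56.7% of the EC level.

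In microglia-like cells *Gda*, *Htra1* and *St3gal5* were high enough to be tested. None passed (edgeR and DESeq2, and none at an unadjusted p under 0.05, against 7.58% of all genes), where 0.0996% of all genes were called higher. *St3gal5* was a transcript of these cells themselves, with 135 (WT1), 110 (WT2), 168 (KO1) and 126 CPM (KO2), above the level in KO ECs, and with 121, 106, 163 and 120 CPM in the cells without EC UMIs. Its log2 fold change was 0.22 ± 0.19 (SE, adjusted p = 0.871). *Gda* differed more between the mice of a genotype (18.8, 4.02, 9.73 and 41.4 CPM) than between genotypes, and leaving out KO1 alone gave a call (1.69, adjusted p = 0.0225). Of the 6 genes with at least 10 UMIs, 1, *Meox1*, had both KO values above both WT values (22.3% of all genes), at 4.18 to 18.7 CPM and with EC markers at 7.84 to 18.7% of the EC level.

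**Figure D5:**
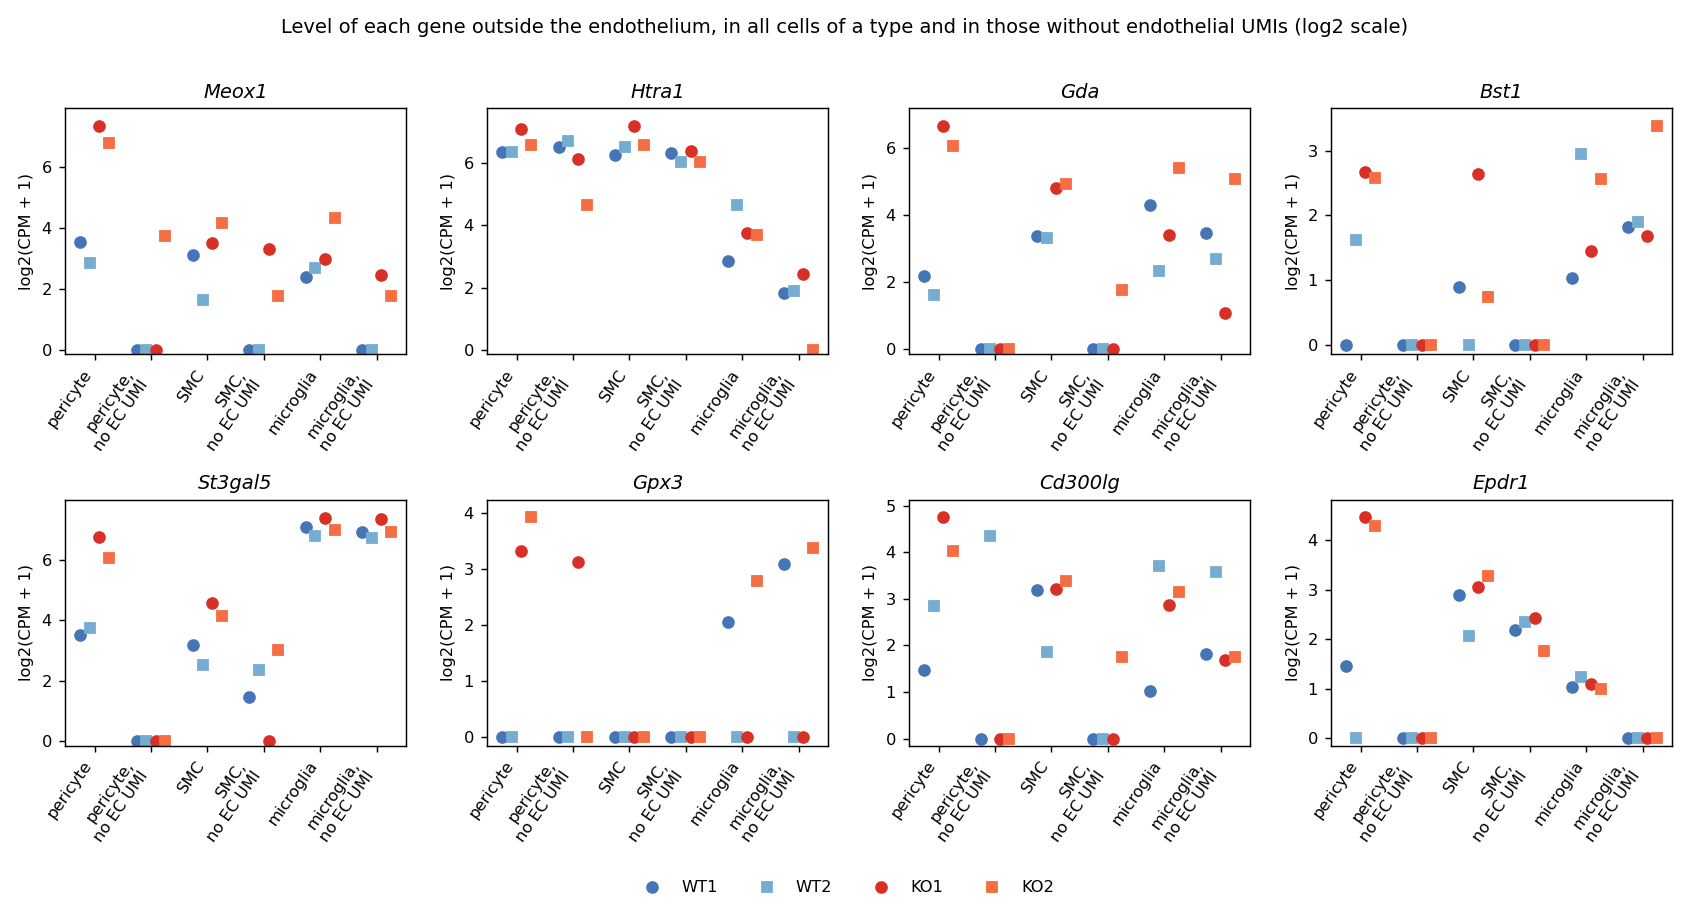
Level of each gene as log2(CPM + 1) (vertical axes) in pericyte-like, smooth muscle-like (SMC) and microglia-like cells, each for all cells and for those without a UMI of *Cldn5*, *Pecam1*, *Cdh5* and *Flt1*, 1 point per mouse. KO points stand above WT points in all pericyte-like cells, most pericyte-like points are at 0 in the cells without EC UMIs, and *Htra1* in mural and *St3gal5* in microglia-like cells remain.

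The other genes of the pathways to which the 8 belong were taken from fixed lists and compared between genotypes in ECs by edgeR's quasi-likelihood test, where 5.8% of all genes were called (3.75% higher and 2.06% lower). Of the listed genes 8 were called. *Gpx8*, a peroxidase of the endoplasmic reticulum, was the 1 called of 21 genes of peroxide defence, at 1.40 (WT1), 1.27 (WT2), 11.8 (KO1) and 6.23 CPM (KO2), with 2.74 ± 0.33 (SE) as its log2 fold change (adjusted p = 0.00462). Of 17 genes around HTRA proteases and TGF-β, *Eng*, the co-receptor endoglin, was higher (558, 544, 1030 and 966 CPM, 0.84 ± 0.14, adjusted p = 0.014), and of 7 sialomucin and CD300 genes *Cd34* was higher (0.66 ± 0.15, 0.0396). Of 13 endothelial transcription factors 3 were lower, *Nr2f2* of veins (−1.36 ± 0.18, 0.00648), *Tcf15* (−0.88 ± 0.17, 0.0257) and *Sox17* of arteries (−0.57 ± 0.11, 0.024). The make-up of the pooled ECs differed too, with 690 of 3223 (WT1), 731 of 4703 (WT2), 149 of 2088 (KO1) and 370 of 4146 ECs (KO2) arterial-like and 950, 1516, 348 and 611 venous-like, and its part in these values was not tested. *B4galt5*, which makes the lactosylceramide that *St3gal5* uses, was the 1 called of 15 ganglioside genes and was lower (−0.60 ± 0.14, 0.0493), whereas *B4galt6*, of the same reaction, was at 1.09 ± 0.26 (0.0513) and is named after its value was seen. *Ampd3* was the 1 called of 11 purine genes (0.60 ± 0.13, 0.0357). Among 10 genes on the NAD list none was called by edgeR, 1 by DESeq2 and 3 at an unadjusted p under 0.05. For 5 genes of peripheral capillary endothelium these numbers were 0, 1 and 1. The number of listed genes called rested on single mice, with 3 without WT2, 5 without WT1 and 14 without KO2. List medians lay between −0.27 and 0.30, with −0.02 over all genes.

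Within KO mice these lists split by angiogenic status, where 15.6% of all genes were called. Of the angiogenic ECs 754 of 1201 (KO1) and 700 of 1456 (KO2) were in the KO-dominated cluster. Without it 179 genes were called against 1995, and the part of zone make-up in the values below was not tested. Of the 21 peroxide genes 6 were higher and 1 lower in angiogenic ECs, with *Gpx8* at 2.81 ± 0.28 (SE, adjusted p = 7.51e-07) and *Sod3*, the extracellular superoxide dismutase, at 2.08 ± 0.61 (0.0257). Of 16 HTRA and TGF-β genes 5 were higher and 3 lower, led by *Htra3* (1.49 ± 0.16, adjusted p = 2.57e-06) and *Eng* (0.54 ± 0.06, 2.39e-06). Of 13 transcription factors 1 was higher and 6 lower, led by *Tcf15* (−1.06 ± 0.12, 4.31e-06), *Sox17* (−0.60 ± 0.06, 5.94e-07) and the flow-responsive *Klf4* (−0.49 ± 0.06, 2.05e-05). Of 11 purine genes 2 were higher and 3 lower, among them *Adk*, adenosine kinase (−0.75 ± 0.08, 3.33e-06). Of 9 genes on the NAD list 2 were lower, *Entpd1* (−0.66 ± 0.08, 1.66e-05) and *Nampt* (−0.26 ± 0.06, 0.00397). The listed *Entpd1* encodes an ectonucleotidase that acts on ATP and ADP and not on NAD. *Cd34* and *Emcn* were higher and *Podxl* was lower among 5 sialomucin and CD300 genes, and *Emcn* was also the 1 called of 5 genes of peripheral capillary endothelium (1 by DESeq2). None of 15 ganglioside genes was called by edgeR or DESeq2, and 6 had an unadjusted p under 0.05. DESeq2 called 3 of the peroxide genes, 4 of the HTRA and TGF-β genes, 4 of the transcription factors and 2 each of the purine, NAD, and sialomucin and CD300 genes. Within WT mice *Sox17* was the single listed gene called (−0.27 ± 0.06, adjusted p = 0.0184), and DESeq2 called 0.

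The genes whose levels went most alike over the 28 sums of mouse by zone or cell type (arterial-, capillary- and venous-like ECs, fenestrated endothelial-, pericyte-, smooth muscle- and microglia-like cells) also differed between the 8. Pearson's r of log2(CPM + 1) was highest for *Meox1* with *Nrp1* (0.94), *Rhbdl2* and *Nid2*, for *Bst1* with *F5* (0.88), *Shb* and *Clint1*, and for *Cd300lg* with *Mgll* (0.92), *Kcnk5* and *Inhbb*. For *St3gal5* it was highest with *Sox4* (0.92), *Mfsd5* and *Nrros*, for *Htra1* with *Fam118a* (0.90), *Cyth3* and *Cobll1*, and for *Epdr1* with *Dync1li2* (0.85), *Nog* and *Myo1e*. For *Gda* it was highest with *Ccnd1* (0.82), *Trim44* and *Odr4*, and for *Gpx3* with *Apln* (0.76), *Prdm1* and *Meox1*. The sums share libraries and cell types, so these values only describe likeness.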

How the data were processed

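Single-cell libraries (10x Genomics 3′ v3.1) of 4 mice were used. The authors deposited UMI counts per gene and barcode, made with Cell Ranger 6.1.2 on mm10 per the submitters' processing notes, with a *yfp* sequence added (32286 features, 32158 of them matched by ID to GENCODE M21). From 19809 barcodes, 17999 cells with over 500 genes and under 10% mitochondrial UMIs were kept, with 31753395 to 42903731 UMIs per library. No doublet caller was run and no doublets were removed, and 33 barcodes occurred in more than 1 library.

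Cells were clustered with Seurat 5.3.0 (2000 variable genes, 50 principal components, resolution 0.2, and 0.4 for ECs, where the 8 genes and the 4 angiogenic genes were left out and 1988 variable genes used). Clusters were named from fixed markers, at least 3 of them found in 25% of cells, a share set after clusters were seen. UMIs were summed per mouse and cell group (R 4.3.3, Matrix 1.6.5) and tested with edgeR 4.0.16 (limma 3.58.1), by filterByExpr, TMM and the quasi-likelihood test with Benjamini-Hochberg adjustment at 0.05. With 2 mice per genotype, these p-values rest on the spread between few animals. DESeq2 1.42.0, other filters, left-out mice, a replicate block, thinning to 2000 UMIs (1983 cells too shallow) and left-out clusters were alternatives. Each test was checked on simulated counts. There 2-fold changes were recovered at 75.7% in ECs, 81.1% by angiogenic status, 53.9% in pericyte-like, 47.1% in smooth muscle-like and 38.2% in microglia-like cells. For 4-fold changes it was 83.3 to 96.2%. A 2-fold change would thus often be missed in smooth muscle-like and microglia-like cells. Shares carry exact 95% binomial intervals and floors stand for 3 UMIs, for counting error only, and both KO above both WT was counted over genes with at least 10 UMIs. Likeness used genes with a mean of at least 5 CPM, sums of at least 20 cells and log2(CPM + 1). Figures were drawn with Python 3.11.15, matplotlib 3.10.9 and pandas 2.3.3. Of each list, up to 4 called genes with the largest change were named. The 8 genes, the lists and the tests were chosen with earlier results of these data known. Replicate numbers go with sex, and the labels do not say whether they mark an experiment, so the block is an alternative (Pearson's r of the deviations of same-numbered mice = 0.097 over 13524 genes and −0.147 over 13080 autosomal genes), and no 2 libraries of a genotype differed by as little as sampling noise (chi-square per degree of freedom 86.5 for WT and 29.6 for KO).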

Additional observations from a re-analysis of the deposited data

Results flagged for a closer look

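The log2 ratio of *Htra1* CPM in angiogenic over other ECs was −0.27 in WT1 and −0.29 in WT2, but 0.69 in KO1 and 0.25 in KO2. In edgeR's fit *Htra1* was not called in WT mice (−0.31, adjusted p = 0.249), and in thinned cells it was at 0.10 in WT (0.944) and 0.17 in KO mice (0.418). The difference between genotypes was not tested.

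*Gpx3* was lower in fenestrated endothelial-like cells of KO mice, where brain ECs of KO mice had more of it. Its level there was 5.8 CPM in WT1 and 5.15 CPM in WT2, against 3.31 CPM in KO1 and 1.25 CPM in KO2, from 22 and 8 UMIs. The difference between both kinds of endothelium was not tested.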

How the results depend on the processing

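The number of the 8 genes with both KO above both WT values lay between 6 and 8 in each of the 14 alternatives run for the 3 zones and for non-angiogenic ECs (counted without a minimum of UMIs, over other cluster resolutions, all variable genes in the clustering, thinned cells, the KO-dominated cluster left out). In the main setting 16.1 to 25.5% of all genes with at least 10 UMIs did so, and no such share is given for the alternatives. Since the genes were chosen for this difference, nothing is read from these counts. With all genes, 785 were called in ECs (8 of the listed genes), 544 in pericyte-like, 2 in smooth muscle-like and 20 in microglia-like cells, and by angiogenic status 1995 in KO and 192 in WT mice. DESeq2 called 13 listed genes, 268 in pericyte-like and 1 in smooth muscle-like cells, and 741 (KO) and 47 (WT) by status. Without the filter on low counts it was 1573 in ECs (16 listed), 831 in pericyte-like, 46 in smooth muscle-like (1 of the 8 genes) and 203 in microglia-like cells, and 341 by status in WT mice (2 of the 8). A stricter filter gave 0 in smooth muscle-like and 49 in microglia-like cells.

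Leaving out 1 mouse gave 250 (without WT2) to 1578 (without KO2) in ECs, with 471 without WT1 and 801 without KO1, and 3 to 14 listed genes. It gave 40 (without WT2) to 674 in pericyte-like cells, with 2 to 6 of the 8 genes, 33 to 66 in smooth muscle-like cells, with 0 to 1 of the 8, and 1 to 169 in microglia-like cells, with 0 to 1. By status it gave 1128 to 2286 in KO mice and 16 to 485 in WT mice, with 1 to 3 of the 8. A lone mouse was assumed to vary like the others.

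The replicate numbers go with sex. Whether they also mark the same experiment is not given by the labels. The replicate block gave 979 in ECs, 614 in pericyte-like, 35 in smooth muscle-like (1 of the 8, *Gda*) and 4 in microglia-like cells. Without the mouse as a block, status gave 524 in KO mice (5 of the 8) and 0 in WT mice (0 of the 8). A crossed block, added after seeing the data, gave 1263 in ECs (14 listed), 735 in pericyte-like, 56 in smooth muscle-like (2 of the 8) and 107 in microglia-like cells.

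At least 2 angiogenic UMIs against none gave 507 in WT mice, and thinned cells 797 (KO) and 86 (WT). Without the KO-dominated cluster 179 were called in KO mice, 3 of them among the 8, and without cells holding EC UMIs 8 in pericyte-like cells, 0 of the 8, most of which had too few UMIs there to be tested.

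Values that changed sign were as follows. Leaving out 1 mouse moved *Gda* from −0.35 (without KO2) to 2.47 in microglia-like cells, *Htra1* there from −1.0005 to 0.89 (without WT2) and *St3gal5* there from −0.026 (without KO1) to 0.41. By status in WT mice it moved *Gda* from −0.24 to 0.16 (without WT2), *Cd300lg* from −0.026 (without WT1) to 0.82 and *Gpx3* from −3.90 (without WT2) to 4.07, and in KO mice *Bst1* from −0.16 (without KO2) to 0.50. With at least 2 UMIs, WT mice had *Cd300lg* at −0.064, *Gda* at 0.50 and *Gpx3* at −2.92. Thinned, they had *Bst1* at −0.48 and *Htra1* at 0.10, and KO mice *Bst1* at −0.45. In smooth muscle-like cells without EC UMIs *Htra1* was at −0.089. Where fewer cells, genes or mice do not show it, the cause was not tested.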
